A study of Mus musculus with 5 samples.

Results

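The interferon-induced GTPases of the IRG (immunity-related GTPase) and GBP (guanylate-binding protein) families were followed through CD71-selected erythroid cells of the mouse. The genes were selected by symbol, as the rows of the expression tables named Igtp, Irgm1, Irgm2, Iigp1, Tgtp1, Tgtp2, Gbp2, Gbp3, Gbp6 or Gbp7, which gave 10 genes of 39179 listed. 6 of them belong to the IRG family and 4 to the GBP family.

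5 poly(A) RNA-seq libraries were compared, all from cells bound to CD71 beads. CD71 is the transferrin receptor, which immature red cells carry in abundance. The control group was 1 library from the bone marrow of untreated C57BL/6 mice at steady state. The UVB group was 2 libraries from the spleens of C57BL/6 mice whose skin had received 50 mJ/cm2 of ultraviolet B light. The tumor group was 2 libraries from spleens taken after subcutaneous injection of B16, a mouse melanoma line. The strain is labelled C57BL/7 for tumor replicate 1 and C57BL/8 for tumor replicate 2, and whether these name different strains is not known. No mutant allele is named for any group. The labels give no age, sex or time after treatment, and do not say whether replicates came from separate animals, so p-values measure only the spread between these libraries, which may be technical. No spleen library of untreated mice was analysed here, so organ and treatment cannot be told apart in either comparison with the control. The comparison of UVB with tumor spleen is between libraries of the same organ.

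IRG and GBP proteins are large GTPases of cell-autonomous immunity. Most are made at low levels until interferon-gamma, and for many of them type I interferon, raises their transcription through signal-activated factors and interferon regulatory factors. Effector IRG proteins and GBPs gather on the vacuoles that enclose intracellular microbes and help to disrupt them. The regulatory IRG proteins sit on the cell's own membranes and hold the effectors inactive there. In mice, loss of Irgm1 is known to impair blood stem cells and the blood lineages under interferon.

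The letters that interferon-activated factors read were looked for in RefSeq promoter windows of GRCm38.p6. Each ran from 250 bases before to 50 bases after an annotated RefSeq start site. 8 of the 10 genes had a window in the table. The interferon-stimulated response element was searched as GAAA, any 2 bases and GAAA again, and the gamma-activated site as TTCNNNGAA, both on either strand. The response element was found in 8 of these 8 genes, against 3.99% of the 27025 genes with windows. Gbp3 had 2 windows, of which 1 held it. The matches began between 77 and 24 bases before the RefSeq start site. The gamma-activated site was found in 5 of the 8 (Igtp, Irgm2, Tgtp1, Tgtp2 and Gbp7), against 9.55% of all genes. A match is a run of letters, not a measured binding site.

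The stretch around the response element is printed here for the 8 genes because it is the feature they share outside the coding sequence. Each reads 5′ to 3′ on the gene's strand, with the letters of the response element or its reverse complement in capitals, and capitals run on where matches overlap.
Gbp2, chr3:142620584-142620633, plus strand: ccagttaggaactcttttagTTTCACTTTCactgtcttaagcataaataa
Gbp3, chr3:142559979-142560034, plus strand: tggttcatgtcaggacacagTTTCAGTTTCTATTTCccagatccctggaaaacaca
Gbp7, chr3:142530263-142530312, plus strand: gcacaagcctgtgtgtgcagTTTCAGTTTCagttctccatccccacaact
Igtp, chr11:58199502-58199551, plus strand: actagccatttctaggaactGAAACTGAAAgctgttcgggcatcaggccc
Irgm2, chr11:58214893-58214942, plus strand: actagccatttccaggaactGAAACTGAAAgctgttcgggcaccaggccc
Tgtp1, chr11:48992294-48992343, minus strand: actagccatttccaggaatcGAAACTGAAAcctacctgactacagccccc
Tgtp2, chr11:49064253-49064302, minus strand: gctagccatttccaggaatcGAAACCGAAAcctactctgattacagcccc
Irgm1, chr11:48871421-48871470, minus strand: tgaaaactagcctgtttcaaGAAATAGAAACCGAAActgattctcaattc

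The element runs as GAAA in the 5 IRG genes and as TTTC in the 3 GBP genes, that is, in opposite orientations along the transcript's strand. In Igtp, Irgm2, Tgtp1 and Tgtp2 the gamma-activated site starts 11 bases ahead of the response element, with 2 bases between them. The printed stretches of Igtp and Irgm2 are nearly identical, and those of Tgtp1 and Tgtp2 are much alike. The matches in these genes are therefore not independent cases in the counts above. Irgm1 lacks the gamma-activated letters in its window and carries overlapping response-element letters. Among the other genes of both families and related inducible GTPases, 6 of 10 with a window held the response element and 3 of 10 the gamma-activated site.

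**Figure D1:**
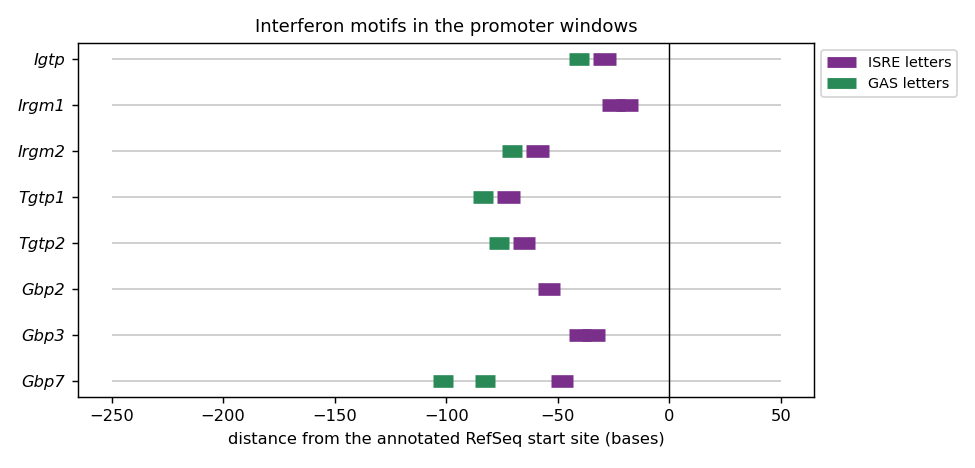
Positions of the interferon-stimulated response element and of the gamma-activated site in the promoter windows of the genes with a RefSeq window, as distance from the annotated RefSeq start site in bases. Each mark is 1 match on either strand. The response-element matches lie between 77 and 24 bases before the RefSeq start site.

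In GRCm38, 5 of the IRG genes lie on chromosome 11 and Iigp1 on chromosome 18 (60376027 to 60392634). Irgm1 (48861968 to 48871683), Tgtp1 (48985327 to 48994172) and Tgtp2 (49057194 to 49064206) are on the minus strand of chromosome 11. Igtp (58199556 to 58207591) and Irgm2 (58199618 to 58222782) overlap on its plus strand. Gbp7 (142530342 to 142550149), Gbp3 (142560026 to 142573209) and Gbp2 (142620602 to 142638008) form a group of 107.7 kb on the plus strand of chromosome 3. The row named Gbp6 lies on the minus strand of chromosome 5 (105214907 to 105293695). These are GENCODE M21 gene extents, whose ends can differ from the RefSeq start sites used for the promoter windows. The response elements printed above for Irgm1, Irgm2 and Tgtp1, for example, lie inside the extents of their genes.

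Each library held 5003923 to 5921270 reads in genes, and 1 read was worth 0.168 to 0.198 CPM, that is, reads per 1000000 reads in genes. The deposited CPM count 1 read added to every gene, which matters only for the lowest values. Summed over 10 erythroid markers, such as Tfrc, which encodes CD71, and the erythroid factors Klf1 and Gata1, the level was 3597 to 4193 CPM in the 5 libraries, and none of the 10 was called in any comparison. A gene was tested where its mean reached 1 CPM, and it was called changed at a Benjamini-Hochberg adjusted p under 0.05 in limma on log2(CPM + 1), which left 15006 genes. Fold changes on that scale understate the change of low genes.

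9 of the 10 GTPase genes passed that filter. The exception was Tgtp1, with 8 reads in the control, 4 and 6 in UVB and 3 and 0 in tumor, where a count of 0 allows up to 3 reads. Tgtp1 and Tgtp2 have 79.4% and 85.8% of their 50-base stretches in common with each other, so reads could be split or lost between them and both are uncertain. Igtp and Irgm2 have 162 exon bases in common, 8.01% of Igtp and 4.39% of Irgm2. The identifier of the Gbp6 row is called Gm43302 in GENCODE M21, a model that overlaps Gbp6 and Gbp10 over 81.6% of its exon bases. Neither overlapping identifier is among the genes listed, and Gbp10 is listed under another identifier. Whether the row counts reads of Gbp6 alone cannot be told, because the authors' annotation was not given. 11.35% of the exon bases of Gbp7 overlap a processed pseudogene, which is not among the genes listed either.

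Per kilobase of exon, the median level over the 5 libraries was highest for Igtp at 28.6 CPM per kb, followed by Gbp7 at 24.97, Irgm2 at 21.6, Irgm1 at 18.6, Gbp2 at 15.2 and Gbp3 at 12.7. Iigp1 stood at 4.70 CPM per kb, Tgtp2 at 2.91, the Gbp6 row at 1.70 and Tgtp1 at 0.309. Among these selected genes, the 3 regulatory IRG genes and 3 of the 4 GBP genes made up the upper part of the order. The effector genes Iigp1, Tgtp2 and Tgtp1 were in the lower part, with Tgtp1 and Tgtp2 subject to the shared reads described above. This split does not describe the IRG family as a whole. Of the other IRG genes described below, Ifi47 stood at 28.2 CPM per kb in control marrow and Gm12250 at 20.5. Most of the others stood lower, such as Gm12185 at 0.499. Among the selected genes, the ranges over libraries overlapped for every adjacent pair. Within libraries, Gbp3 exceeded Iigp1 and Tgtp2 exceeded the Gbp6 row in 5 of 5 libraries, and the other neighbours changed places in at least 1 library.

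The question of the spleen comparison was how the GTPase genes differed between the UVB and tumor spleens. In CPM, all 10 genes were higher in both UVB libraries than in both tumor libraries. 3 of the 9 tested were called higher in UVB, namely Igtp, Irgm2 and Tgtp2, and none was called lower. Over all genes tested, 4.7% were called higher, 12.3% lower and 17% in either direction. The absence of overlap held for 9 of the 9 tested genes, against 34.8% of all genes lying wholly higher and 38.4% wholly lower in UVB. 8 of the 9 had an unadjusted p under 0.05, against 42.2% of all genes. The median log2 difference was 1.21 for the 9 genes and -0.01 for all genes. In bulk samples, fewer cells of a type and less RNA per cell cannot be told apart.

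**Figure D2:**
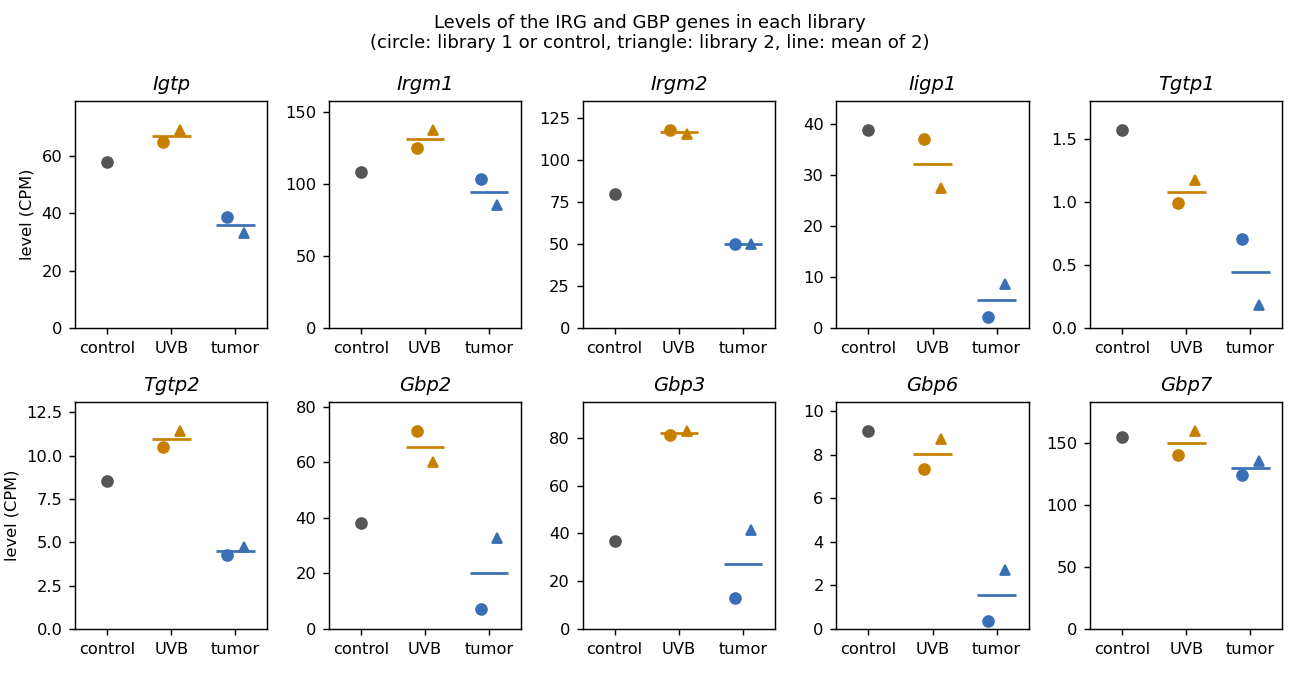
CPM of each of the 10 GTPase genes in each library, on linear axes that start at 0 and differ between genes. Circles are replicate 1 or the control, triangles replicate 2, and lines the mean of 2 libraries. Both UVB points lie above both tumor points for every gene, and the tumor points of Iigp1, Gbp2, Gbp3 and Gbp6 lie far apart.

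Of the 3 regulatory IRG genes, Irgm2 and Igtp were called. Irgm2, a Golgi-associated regulator, stood at 79.5 CPM in control marrow, 117 and 115 in UVB and 49.7 and 49.7 in tumor. The UVB libraries were high, the tumor libraries low and the control lay between them, with no overlap. UVB (116 ± 1.39 CPM, SD, n = 2) exceeded tumor (49.7 ± 0.0463, n = 2) by 1.21 on the log2 scale (SE 0.10, 95% interval 0.94 to 1.48), a 2.32-fold difference with a limma adjusted p of 0.02.

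Igtp, also called Irgm3, a regulator on the endoplasmic reticulum and lipid droplets, stood at 57.9 CPM in control marrow, 64.8 and 68.8 in UVB and 38.5 and 33.1 in tumor. The order was again UVB, control, tumor, without overlap. UVB (66.8 ± 2.79 CPM, n = 2) exceeded tumor (35.8 ± 3.82, n = 2) by 0.89 on the log2 scale (SE 0.14, 95% interval 0.52 to 1.25), 1.85-fold, with a limma adjusted p of 0.0301.

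Irgm1, the regulator tied to autophagy, mitochondria and stem cell maintenance, stood at 108 CPM in control marrow, 125 and 137 in UVB and 104 and 85.7 in tumor. The groups did not overlap, but tumor replicate 1 was close to the control. The log2 difference of UVB from tumor was 0.47 (SE 0.14), 1.39-fold, and missed the threshold with a limma adjusted p of 0.0765.

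Of the effector IRG genes, Tgtp2, which encodes a T-cell-specific GTPase, stood at 8.55 CPM in control marrow, 10.5 and 11.4 in UVB and 4.26 and 4.70 in tumor. UVB was higher than the control and tumor lower, at 23 and 25 reads in the tumor libraries. UVB (10.96 ± 0.636 CPM, n = 2) exceeded tumor (4.48 ± 0.315, n = 2) by 1.13 on the log2 scale (SE 0.22, 95% interval 0.53 to 1.72), 2.18-fold, with a limma adjusted p of 0.0415, subject to the reads it may exchange with Tgtp1.

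Iigp1, also called Irga6, an effector that loads onto parasite vacuoles, stood at 38.7 CPM in control marrow, 37.1 and 27.3 in UVB and 2.13 and 8.68 in tumor. UVB was near the control or below it and both tumor libraries were low, tumor replicate 1 on 11 reads. The log2 difference of UVB from tumor was 2.58 (SE 0.59), 5.97-fold. It was the largest of the 9, and missed the threshold with a limma adjusted p of 0.0522.

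In 3 of the 4 GBP genes the tumor libraries lay far apart, and Gbp7 was the exception. Gbp2, whose protein coats pathogen vacuoles, stood at 38.2 CPM in control marrow, 71.2 and 60.1 in UVB and 7.27 and 32.7 in tumor. Both UVB libraries were above the control, and tumor replicate 2 was much nearer the control than tumor replicate 1. The log2 difference of UVB (65.6 ± 7.87 CPM, n = 2) from tumor (20.005 ± 18.0, n = 2) was 1.99 (SE 0.70) with a limma adjusted p of 0.105.

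Gbp3, a family member of the same chromosome 3 group, stood at 36.6 CPM in control marrow, 81.3 and 82.7 in UVB and 12.95 and 41.6 in tumor. It was the only one of the 10 genes with a tumor library above the control. Its log2 difference of UVB from tumor was 1.77 (SE 0.55, 95% interval 0.30 to 3.24), 3.40-fold, with a limma adjusted p of 0.0869.

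The Gbp6 row stood at 9.07 CPM in control marrow, 7.34 and 8.72 in UVB and 0.355 and 2.71 in tumor, the last pair resting on 1 and 14 reads. The UVB libraries were near the control and the tumor libraries low. Its log2 difference of UVB from tumor was 2.01 (SE 0.54) with a limma adjusted p of 0.0678.

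Gbp7, known in mice for promoting oxidative killing in infected macrophages, stood at 155 CPM in control marrow, 140.2 and 159 in UVB and 124 and 135 in tumor. The 5 libraries were close together. Its log2 difference of UVB (149.6 ± 13.3 CPM, n = 2) from tumor (129 ± 7.47, n = 2) was 0.21 (SE 0.12, 95% interval -0.10 to 0.51) with a limma adjusted p of 0.236. It is the neighbour of Gbp3, whose levels lay much further apart.

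**Figure D3:**
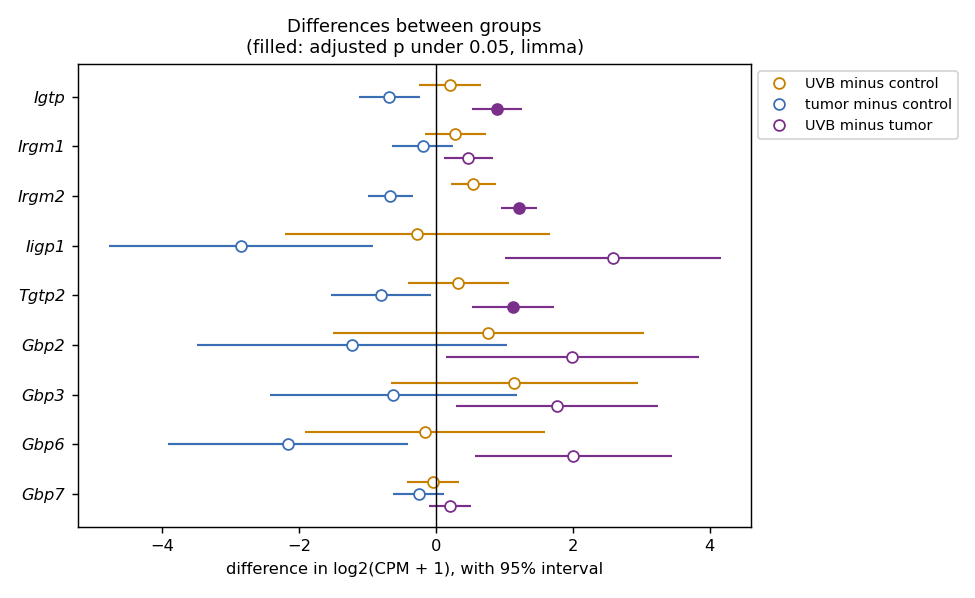
log2 differences of each tested GTPase gene in the 3 comparisons, as points with 95% intervals from limma on log2(CPM + 1). All 9 differences of UVB from tumor lie above 0, from 0.21 for Gbp7 to 2.58 for Iigp1, with wide intervals for Iigp1, Gbp2, Gbp3 and Gbp6.

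The number of calls moved with the library left out, for all genes as for the GTPases, and a group left with 1 library was assumed to vary like the others. Without UVB replicate 1 or without UVB replicate 2 no gene of the whole table was called, while the log2 differences of the 3 called GTPases stayed close, at 1.199 and 1.223 for Irgm2, 0.93 and 0.84 for Igtp and 1.18 and 1.07 for Tgtp2. Without tumor replicate 1, 8 of the 9 tested were called, against 38.0% of all genes. Without tumor replicate 2, where Tgtp1 also passed the filter, 8 of 10 were called, against 52.6% of all genes. Gbp7 was called in neither. The difference itself depended on the tumor library for Gbp2, at 0.98 without tumor replicate 1 and 3.004 without tumor replicate 2, and for Gbp3, at 0.96 and 2.57. For Iigp1 the values were 1.76 and 3.39, and for the Gbp6 row 1.28 and 2.73.

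The gap between the tumor libraries was gene-specific. Per unit of depth, the level in tumor replicate 2 over that in tumor replicate 1 was 1.001 for Irgm2 (exact 95% interval 0.845 to 1.19), 0.859 for Igtp (0.702 to 1.05) and 0.827 for Irgm1 (0.731 to 0.936). It was 4.59 for Gbp2 (3.24 to 6.64), 3.24 for Gbp3 (2.48 to 4.29) and 4.36 for Iigp1 (2.23 to 9.32). The regulatory IRG genes were thus level or slightly lower in tumor replicate 2, while Gbp2, Gbp3 and Iigp1 were several-fold higher there.

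For Gbp7 the ratio was 1.09 (0.978 to 1.21) and for Tgtp2 1.11 (0.604 to 2.04). The Gbp6 row, with 1 read in tumor replicate 1, had a ratio of 14.3 (2.17 to 604). Over the 15006 genes the median ratio was 1.03, and 5% of genes lay below 0.648 and 5% above 3.57. A ratio of at least 2 occurred in 16.6% of them. These intervals cover counting error only.

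The B-cell and macrophage marker sums were lower in both tumor libraries than in both UVB libraries, as were the GTPase sums. The same held for the T-cell, NK-cell, dendritic, monocyte and endothelial sums given below. It did not hold for the plasma-cell, neutrophil, megakaryocyte and erythroid sums. Summed over 9 B-cell markers, the level was 968 CPM in control marrow, 2039 and 1948 in UVB and 464 and 1439 in tumor. 9 of the 9 were lower in both tumor libraries than in both UVB libraries, against 34.8% of all genes. The defining B-cell gene Cr2 stood at 504 and 505 CPM in UVB and at 86.9 and 358 in tumor. The B-cell sum was 3.10 times as high in tumor replicate 2 as in tumor replicate 1, against 1.46 for the sum of the 4 GBP genes and 0.916 for that of the 6 IRG genes.

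Summed over 10 macrophage markers, the level was 1695 CPM in control marrow, 2321 and 2018 in UVB and 714 and 1172 in tumor. 9 of the 10 were lower in both tumor libraries, against 34.8% of all genes tested. Siglec1, Vsig4, Cd163 and Mertk were called lower in tumor than in UVB, as were 4.7% of all genes, and Clec4f had 0 reads in all 4 spleen libraries. None of the 9 B-cell markers was called. The part of these cells in the GTPase levels was not tested.

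The other marker lists were summed in the same way, and a sum does not measure the share of a cell type. Markers of NK cells summed to 15.5 CPM in control marrow, 10.7 and 8.22 in UVB and 1.95 and 6.87 in tumor, with 5 of the 8 at 0 reads in tumor replicate 1. Those of T cells summed to 138 CPM in control marrow, 140 and 89.8 in UVB and 27.9 and 49.6 in tumor, with Cd3e at 4.96 and 1.01 CPM in UVB and 0.887 and 1.63 in tumor. Sums for dendritic cells were 264 and 188 CPM in UVB and 141 and 180 in tumor, for monocytes 78.9 and 251 against 56.2 and 68.7, and for plasma cells 374 and 288 against 232 and 322. Single genes carried some of these sums, such as Fn1 with 228 CPM of the monocyte sum in UVB replicate 2 and Zbtb46 with 105.6 CPM of the dendritic sum in tumor replicate 1. Cd4 made up 98.9 CPM and Lck 33.0 CPM of the T-cell sum in control marrow, where Cd3d, Cd3g and Cd8a had 0 reads. Endothelial markers summed to 525 and 523 CPM in UVB and 232 and 350 in tumor. In UVB, Pecam1 (212 and 214 CPM) and Stab2 (227 and 192 CPM) carried most of that sum. Of the 7 endothelial markers, 4 were wholly lower and 2 wholly higher in UVB, against 38.4% and 34.8% of all genes. Their median log2 difference was -0.29. 2 were called lower in UVB and 1 higher, against 12.3% and 4.7% of all genes. Neutrophil markers summed to 58.1 and 76.2 against 41.2 and 115 with 898 in the control, and megakaryocyte markers to 55.9 and 49.2 against 69.2 and 48.5. How these cells bear on the GTPases was not tested.

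**Figure D4:**
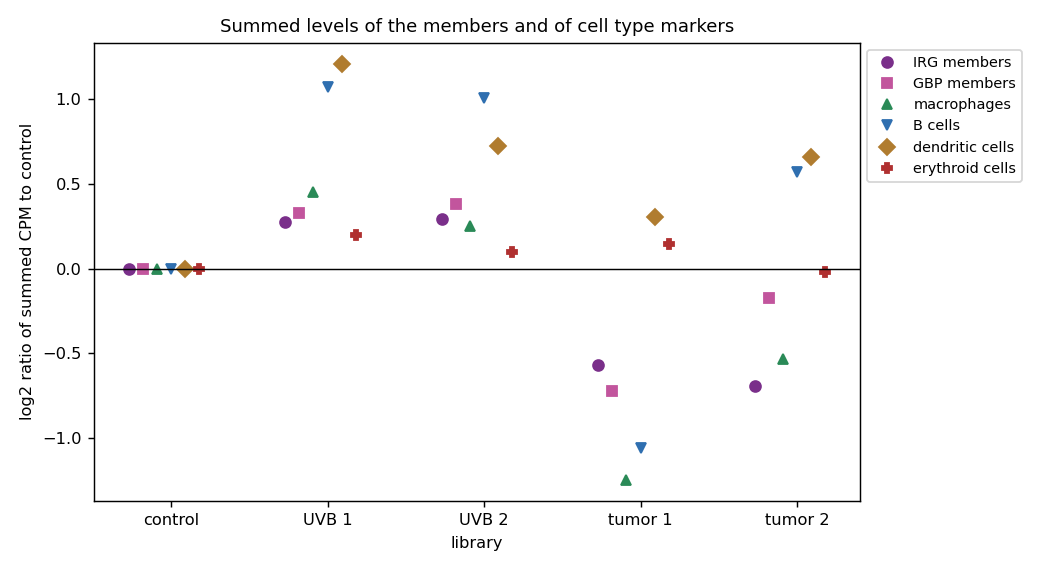
Summed CPM of the IRG genes, the GBP genes and marker lists of other cells in each library, as the log2 ratio to the control library. The B-cell, macrophage and dendritic sums are lower in both tumor libraries than in both UVB libraries, as are the IRG and GBP sums. The erythroid sum stays between -0.02 and 0.20.

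Against the control bone marrow, the UVB spleens showed no called change. None of the 9 tested genes was called, and 1, Irgm2, had an unadjusted p under 0.05, against 15.2% of all genes. Over all genes tested, 2.33% were called in either direction, 0.18% higher and 2.15% lower. 6 of the 9 were above the control in both UVB libraries, against 34.8% of all genes, and 2 were below it in both, against 47.9%. The median log2 difference was 0.28, against -0.06 for all genes.

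Irgm2 was higher in UVB by 0.54 on the log2 scale (SE 0.12, 95% interval 0.22 to 0.87) with a limma adjusted p of 0.15. Gbp3 differed by 1.14 (SE 0.68, 95% interval -0.66 to 2.94) with an adjusted p of 0.4995, and Gbp2 by 0.76 with an adjusted p of 0.715. Leaving out tumor replicate 1 or tumor replicate 2 from the shared estimate of the spread brought Irgm2, Gbp2 and Gbp3 past the threshold, with 20.8% of all genes called in either case.

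The remaining differences from the control were 0.20 for Igtp, 0.28 for Irgm1 and 0.32 for Tgtp2. They were -0.27 for Iigp1, -0.16 for the Gbp6 row and -0.05 for Gbp7. The limma adjusted p of these 6 lay between 0.508 and 0.933.

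The tumor spleens were on the other side of the control. 8 of the 9 tested genes were below it in both tumor libraries, against 37.9% of all genes, with Gbp3 as the exception. None was called, and 5 had an unadjusted p under 0.05, against 24.5% of all genes. Over all genes tested, 3.79% were called in either direction, 1.2% higher and 2.59% lower. The median log2 difference was -0.68, against -0.01 for all genes.

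Iigp1 stood furthest below the control, at -2.85 on the log2 scale (SE 0.73) with a limma adjusted p of 0.116, followed by the Gbp6 row at -2.17 with 0.152. Irgm2 differed by -0.67 (SE 0.12) with an adjusted p of 0.0695 and Igtp by -0.68 with 0.111. Tgtp2 differed by -0.80 with 0.18 and Gbp2 by -1.23 with 0.434.

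The smaller differences were -0.63 for Gbp3, -0.25 for Gbp7 and -0.20 for Irgm1. That of Gbp3 had the opposite sign, 0.18, without tumor replicate 1. No GTPase gene was called without either UVB library, nor was any other gene. 4 of 9 were called without tumor replicate 1, against 22.6% of all genes, and 6 of 10 without tumor replicate 2, against 36.2%, in fits where the UVB libraries alone give the spread. The 3 comparisons share libraries, so their values for a gene are not independent. Igtp, Irgm1, Irgm2, Tgtp2 and Gbp2 ran in the order UVB, control, tumor with no overlap, and the other 5 genes did not. The share of all genes in that order was not computed, so how common it is was not tested.

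The other genes of the IRG family were higher in UVB than in tumor as well. 9 of the 10 listed passed the filter, with a median log2 difference of 1.44. Of these 9, 3 were called higher in UVB, against 4.7% of all genes. 9 lay wholly higher in UVB, against 34.8% of all genes. Ifi47, also called Irgd, stood at 69.7 ± 0.913 CPM in UVB and 38.7 ± 3.32 in tumor (n = 2 each), a log2 difference of 0.83 with a limma adjusted p of 0.0292. Gm12250, which encodes Irgb10, stood at 35.8 ± 2.72 and 9.17 ± 4.68 CPM, a difference of 1.94 with 0.0391. GENCODE M21 lists Gm12250 as a processed pseudogene.

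Gm12185 was called at lower levels, 4.76 ± 0.561 CPM in UVB and 0.720 ± 0.516 in tumor, a log2 difference of 1.77 with a limma adjusted p of 0.033. The 6 not called were Gm4951 at 2.68, Gm5431 at 1.74, 9930111J21Rik2 at 1.44, 9930111J21Rik1 at 1.37, Irgc1 at 0.71 and Irgq at 0.64. The pair 9930111J21Rik1 and 9930111J21Rik2 have 80.4% and 56.1% of their 50-base stretches in common with each other, and Gm5431 37.3% and Gm12185 19.5% with other genes of the tables, so their reads are uncertain.

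Of the other GBP genes, 5 of 7 passed the filter. None was called, against 4.7% of all genes called higher and 12.3% lower. 5 lay wholly higher in UVB, against 34.8% of all genes. Gbp9 stood at 94.5 ± 6.52 CPM in UVB and 31.9 ± 22.6 in tumor, a log2 difference of 1.73 with a limma adjusted p of 0.083. Gbp4 differed by 1.71, Gbp8 by 1.46 and Gbp10 by 0.84. The row named Gbp5, whose identifier is Gbp2b in GENCODE M21, differed by 1.39.

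Of 5 other interferon-induced GTPases, 1 was called higher in UVB, against 4.7% of all genes. This was Mx2, at 15.3 ± 2.19 CPM against 2.70 ± 2.06, a log2 difference of 2.25 with a limma adjusted p of 0.0447. Mx2 belongs to the dynamin-like antiviral GTPases, and GENCODE M21 lists this gene as a polymorphic pseudogene. Its relative Mx1 differed by 2.55 with 0.0531, and the very large inducible GTPases Gm1966, Gm4070 and Gvin1 by 1.40, 0.96 and 0.20, the last pair being near-identical copies whose reads may be exchanged. GENCODE M21 lists Gm1966 as an unprocessed pseudogene. Against the control none of these 3 groups held a called gene, where 2.33% of all genes were called in UVB and 3.79% in tumor. The median log2 differences from the control were 0.54, 1.10 and 0.82 in UVB and -0.92, -0.58 and -1.13 in tumor, for the IRG, GBP and other GTPase genes in turn.

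The signaling genes upstream of the family were described next. Ifng itself, the gene of interferon-gamma, had 0 to 2 reads in each library and was not tested. Ifngr1 and Ifngr2, the receptor chains, differed by 0.71 and 0.77 on the log2 scale between UVB and tumor with limma adjusted p of 0.0897 and 0.115. Neither receptor chain passed the threshold.

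Irf1, an interferon-induced regulator of GBP genes, stood at 92.6 CPM in control marrow, 122 and 110 in UVB and 22.0 and 61.9 in tumor, a log2 difference of 1.62 with a limma adjusted p of 0.0845. Nlrc5, the activator of MHC class I genes, stood at 120.3 CPM in control marrow, 140.4 and 130.02 in UVB and 15.3 and 59.7 in tumor, a difference of 2.12 with 0.0831. In both, tumor replicate 1 was the lower tumor library, as it was for Gbp2, Gbp3 and Iigp1. The median difference of the 12 tested interferon-gamma signaling genes was 0.74. Of the 12, 2 were called higher in UVB, against 4.7% of all genes, and none lower, against 12.3%. Of the called genes, Irf2, an interferon regulatory factor, stood at 122 ± 0.253 CPM in UVB and 81.8 ± 10.1 in tumor (n = 2 each), a difference of 0.58 with 0.048.

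Of 8 type I interferon signaling genes tested, 3 were called higher in UVB, against 4.7% of all genes, and none lower, against 12.3%. Stat2, a subunit of the factor that binds the response element, stood at 134 CPM in control marrow, 174 and 176 in UVB and 69.4 and 82.1 in tumor, 2.30-fold higher in UVB than in tumor with a limma adjusted p of 0.0209. Irf7 differed by 1.28 with 0.0273 and the receptor chain Ifnar1 by 0.68 with 0.045. The median of the 8 was 0.62.

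The median log2 difference of UVB from tumor was 1.44 for 21 type I interferon-response genes. Among the 21, 12 were called higher in UVB, against 4.7% of all genes, and none lower, against 12.3%. The 12 were Oas2 (3.02), Ifit3 (2.83), Ifi44 (2.81), Xaf1 (2.68), Rtp4 (2.11), Dhx58 (1.84), Oas1a (1.52), Ifit1 (1.44), Oasl2 (1.32), Parp14 (0.98), Oas3 (0.75) and Ifih1 (0.71). Of these, Ifit1, Oas2, Ifi44, Xaf1, Rtp4 and Dhx58 were also called lower in tumor than in the control, against 2.59% of all genes. No IRG or GBP gene passed that step. Xaf1, an interferon-induced apoptosis factor, stood at 59.3 ± 0.564 CPM in UVB and 8.42 ± 0.138 in tumor (n = 2 each).

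Of 17 other interferon-gamma targets tested, 14 were wholly higher in UVB, against 34.8% of all genes. None was called higher in UVB, against 4.7% of all genes, and 1 was called lower, against 12.3%. That gene was Wars, the tryptophanyl-tRNA synthetase, at 67.2 ± 1.71 CPM against 133 ± 6.89 and a log2 difference of -0.98 with a limma adjusted p of 0.0211. The median of the 17 was 0.76. Of 14 genes of the machinery that brings the GTPases to membranes or acts beside them, 1 was called higher in UVB. That count is near the share of 4.7% among all genes. The gene was Aim2, a sensor of cytosolic DNA that GBPs help to engage, at 98.2 ± 2.04 CPM against 39.95 ± 1.56, a log2 difference of 1.28 with an adjusted p of 0.02. The median of the 14 was 0.11, and Aim2 was also called lower in tumor than in the control, by a log2 difference of -0.91 with 0.0473.

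The average pattern of the 7 GTPase genes that averaged 10 CPM or more, centred on each gene's own mean, was 0.22 in the control, 0.61 and 0.58 in UVB and -1.06 and -0.36 in tumor, in log2 units. Among 9771 other genes, the nearest to it by root-mean-square distance was Alpk1, a cytosolic sensor kinase for bacterial sugars, at 0.0200. Alpk1 stood at 31.7 CPM in control marrow, 41.0 and 39.3 in UVB and 12.4 and 20.8 in tumor. The next were the MHC class I-like gene H2-T22 at 0.0452, the membrane scramblase Ano6 at 0.0482, N4bp2l1 at 0.0606, Arl10 at 0.0609, Atp13a2 at 0.0637, Arid5b at 0.0641 and Dlgap4 at 0.0647. The median distance was 0.699. These distances describe 5 libraries of 3 groups, and with a pseudocount of 0.25 in place of 1 only 4 of the 8 genes stayed among the 8 nearest.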

How the data were processed

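Per the submitters' processing notes, reads were handled with STAR and HTSeq on mm10. Versions, annotation, strand setting and duplicate handling were not given in the sources used here. The authors deposited CPM values for 39179 genes in 2 tables that share the control. From the values, the authors had added 1 read to every gene. 100% of values were whole multiples of 1 read (relative tolerance 1e-06), and reads given here exclude the added one. The authors' deposited log2 ratios to the control were checked against the CPM and not used further.

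Genes averaging 1 CPM or more were tested with limma 3.58.1 (R 4.3.3, trend on) on log2(CPM + 1) in a single model of the 5 libraries, which leaves 2 residual df. The spread of the lone control was taken to equal that of the spleen groups. Tests are two-sided and Benjamini-Hochberg adjusted over all genes tested. Alternatives were a pseudocount of 0.25, no filter, a 5 CPM filter, edgeR 4.0.16 on the recovered reads, median-of-ratios scaling, a replicate block, the spleen libraries alone and each library left out. Depth was 5003923 to 5921270 reads in genes.

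The GTPase genes and the gene lists were chosen with earlier results of these data known. All 10 genes and the filtered family genes were named, as were called genes of the pathway lists (except 1, not reported here), 5 preset interferon genes and the 8 nearest in pattern. Positions come from GENCODE M21 (GRCm38), promoters from RefSeq GRCm38.p6. Exon lengths are the union of M21 exons. 1 listed entry had no row in the tables. The labels tie the replicate numbers to no shared animal, litter or day.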

Additional observations from a re-analysis of the deposited data

How the results depend on the processing

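The median log2 difference of the 9 tested GTPase genes kept its sign in each comparison and alternative run. The number of all genes called in UVB against the control was 349, and 101 with a pseudocount of 0.25, 1813 with no filter, 67 at 5 CPM, 116 with edgeR and 0 to 3147 with 1 library left out. In tumor against the control it was 569, and 232, 2303, 70, 192 and 0 to 5445 in turn. In UVB against tumor it was 2557, and 2377, 3347, 2626, 2008 and 0 to 7900. The called GTPase genes in UVB against the control were 0, and 0 to 3 with 1 library left out. In tumor against the control they were 0, and 1 with no filter (Iigp1) and 0 to 6 with 1 left out. In UVB against tumor they were 3, and 6 with no filter, 4 at 5 CPM, 4 with median-of-ratios scaling and 0 to 8 with 1 left out. With the replicate number as a block, 0 genes were called in all and 0 of the GTPases, with adjusted p of 0.0774 for Irgm2, 0.0867 for Igtp and 0.0973 for Tgtp2, while 8 of the 9 had an unadjusted p under 0.05. Same-numbered replicates did not deviate together (correlation -0.111 across genes, 2 pairs), and a crossed pairing, chosen after the data were seen, gave 3071 genes and 3 GTPases, with Tgtp2 no longer called (0.0532). Beyond the blocks, the calls of Irgm2, Igtp and Tgtp2 were lost only without UVB replicate 1 or UVB replicate 2. Mx2 lost its call with a pseudocount of 0.25 (adjusted p 0.0531) and with edgeR (0.0503), and Irf2 with a pseudocount of 0.25 (0.0503) and no filter (0.052).

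Signs that turned belonged to differences from the control that were not called. In UVB these were Ifi47, at 0.038 with edgeR, 0.027 with median-of-ratios scaling and -0.016 to 0.011 with 1 library left out, Gbp7 (-0.14 to 0.041), Gm4070 (-0.083 to 0.36) and Ifit1 (-0.091 to 0.092). In tumor they were Gbp5, at 0.034 with edgeR and -1.13 to 0.70 with 1 left out, 9930111J21Rik1, at 0.14 and -0.72 to 0.69, 9930111J21Rik2 (-0.97 to 0.52), Gbp3 (-1.43 to 0.18), Gbp4 (-1.55 to 0.39) and Gbp8 (-0.89 to 0.17). The cause was not tested. Depth limits Tgtp1, with 3 reads in tumor replicate 1 and 0 in tumor replicate 2, and the Gbp6 row, with 1 read in tumor replicate 1.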

Other observations

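Socs1, Ptpn2 and Jak1 were picked after their values were seen. Socs1, which blocks JAK kinases, stood at 6.58 ± 0.895 CPM in UVB and 14.3 ± 3.35 in tumor (n = 2 each), a log2 difference of -1.001 with a limma adjusted p of 0.0694. Ptpn2, a phosphatase that acts on JAK kinases, differed by -0.49 with 0.0579. Neither passed the threshold, and for neither gene did the groups overlap. Jak1, a kinase of the receptor, differed by 0.05 (95% interval -0.21 to 0.30).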
